A study of Mus musculus with 3 samples.

Results

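A total of 45 genes that carry secretory proteins into the endoplasmic reticulum (ER), fold them there and respond when folding falls behind were followed across cell types, libraries and levels of the hormone precursor Pomc in the mouse intermediate lobe (IL). The genes were listed by name for their known roles, with earlier results of these data known. All 45 had a row in each of the 3 deposited tables, out of 17775 genes with a row in any table and 15527 with a row in all of them. A nascent secretory protein is recognised by the signal recognition particle (SRP), threaded through the Sec61 channel, relieved of its signal peptide by signal peptidase, glycosylated by the oligosaccharyltransferase and folded by chaperones and disulfide isomerases. The unfolded protein response (UPR) adjusts this machinery to the load, and ER-associated degradation (ERAD) removes what does not fold. Melanotrophs, the main endocrine cells of the IL, give a large part of their transcripts to Pomc, whose product passes through this route before it is cut into hormones.

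The study asked what loss of the cell cycle inhibitor p27, encoded by Cdkn1b, does to stem cells (SCs) and melanotrophs of the IL, and what changes when the dose of Sox2 is lowered in the same mice. There was 1 droplet library for each of 3 genotypes, from dissected ILs of 3-month-old mice. WT was a pool of 2 males, and the other genotypes were pools of males and females whose number is not given in the sources used here. WT was labelled Sox9iresCreERT2/+, P27NULL carried p27-/- on that background, and S2CK carried Sox2fl/+ and p27-/- on it, and the study's methods add a Rosa26 eYFP reporter to all of them. Every library, WT included, thus held a tamoxifen-inducible Cre driven by Sox9, a gene active in SCs. The labels put the tamoxifen gavage at 4 weeks of age in all groups, whereas the text of the study places induction at birth, and the p27 loss is constitutive while the Sox2 deletion was aimed at Sox9-expressing cells and what they give rise to. No genotype had a replicate.

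The tables held 2020 (WT), 4153 (P27NULL) and 3488 (S2CK) cells with 8332285, 15588317 and 19239147 unique molecular identifiers (UMIs). Pairs of libraries shared 2 to 4 cell barcodes. Cdkn1b, the targeted gene, had melanotroph levels of 33.2 (WT), 29.3 (the library labelled P27NULL) and 16.8 (S2CK) counts per 1000000 UMIs (CPM), with exact 95% Poisson intervals that overlapped between WT (28.8 to 38.1) and P27NULL (26.5 to 32.4). The counts therefore did not separate the library labelled P27NULL from WT, and every direction drawn from it rests on its label. By sex-linked transcripts no cell of WT, 766 cells of P27NULL and 3274 cells of S2CK were female, so genotype and sex cannot be told apart across all cells. Melanotrophs, taken as cells with at least 5% of their UMIs from Pomc and at least 2 UMIs of the convertase gene Pcsk2, numbered 1245, 3481 and 2968, and clusters named SC-like from their markers held 127, 100 and 86 cells. All 7 melanotroph markers were detected in the melanotrophs of each library, at a summed 3507 to 7209 CPM against 113 to 419 CPM in SC-like cells, and all 8 SC markers in the SC-like cells, at 5532 to 12026 CPM against 78.4 to 124 CPM. These sums are not an independent check of identity. Pcsk2, which the melanotroph rule required, is among the 7 markers, and the SC-like clusters were named from the same 8 SC markers.

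Transcription of many of these genes is known to be raised in the UPR through short promoter motifs, so the promoters are described ahead of the levels. The search itself was run after the levels had been computed and tested. The window from 250 bases before to 50 bases after the annotated start was available from RefSeq (GRCm38.p6) for 36 of the 45 genes. The ER stress response element (ERSE), here CCAAT and CCACG with 9 free bases between them on either strand, was present in the windows of Hspa5, Hsp90b1, Dnajc3, Creld2 and Pdia6, and in 0.137% of the 27025 genes with a window. Its variant ERSE-II, ATTGG and CCACG with 1 free base between them, was present in Dnajb11 and Herpud1 and in 0.0444% of all genes. The UPR element TGACGTGG, the cyclic AMP response element TGACGTCA and the Atf4-type element TGATGNAAT, held by 0.714%, 2.03% and 1.08% of all genes, were found in the window of none of the 36. A match describes these letters and not a bound site. The whole Hspa5 window, at chr2:34771840-34772139 on the plus strand, is shown because this gene, for the chaperone BiP, is the usual readout of the UPR. Capitals mark the exact match to the ERSE letters above, whose bases lie 47 to 65 before the start. Looser matches were not searched for.
Hspa5: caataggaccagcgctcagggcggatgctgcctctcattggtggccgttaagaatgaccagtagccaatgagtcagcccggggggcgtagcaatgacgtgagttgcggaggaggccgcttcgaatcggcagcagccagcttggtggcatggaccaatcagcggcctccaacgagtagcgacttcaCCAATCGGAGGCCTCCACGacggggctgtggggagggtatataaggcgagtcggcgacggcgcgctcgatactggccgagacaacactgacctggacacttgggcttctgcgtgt

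The other matches are shown with 8 bases on each side so that the shared ends and the differing middle can be compared, read along the strand of the gene. They lie at chr10:86705630-86705664 and chr10:86705525-86705559 (Hsp90b1, minus strand), chr14:118937819-118937853 (Dnajc3), chr15:88819512-88819546 (Creld2), chr12:17266483-17266517 (Pdia6), chr16:22857844-22857870 (Dnajb11) and chr8:94386369-94386395 (Herpud1), the last 5 on the plus strand. Hsp90b1 held 2 copies in opposite orientation, the Creld2 copy was also reversed, and the Dnajb11 match lay after the start, within the transcribed part.
Hsp90b1 far: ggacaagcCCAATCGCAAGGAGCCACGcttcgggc
Hsp90b1 near: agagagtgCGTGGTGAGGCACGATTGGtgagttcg
Dnajc3: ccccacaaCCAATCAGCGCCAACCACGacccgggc
Creld2: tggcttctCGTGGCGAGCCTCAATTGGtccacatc
Pdia6: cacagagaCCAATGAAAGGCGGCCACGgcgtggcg
Dnajb11: cggcggcgATTGGCCCACGcctggctg
Herpud1: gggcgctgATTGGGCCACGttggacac

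The 45 genes together made up a similar share of all transcripts in the melanotrophs of the 3 libraries, with 12473 (WT), 12840 (P27NULL) and 12137 (S2CK) CPM. SC-like cells gave them a smaller share, 9421, 9320 and 8017 CPM. These sums are shares of the UMIs of a cell type, so a larger share of ER transcripts and a smaller amount of other RNA cannot be told apart. Gonadotroph-like cells (14350, 12428 and 13150 CPM) and Pou1f1 lineage-like cells (13594, 13396 and 11784 CPM), both endocrine, lay near the melanotrophs. Corticotroph-like cells were named as a cluster in S2CK alone (77 cells) and were not compared. Connective tissue-like cells, which export matrix proteins, spanned 11459 to 17482 CPM and did so between libraries, with 33 to 49 cells each. Macrophage-like cells (8182 to 9156 CPM) and endothelial-like cells (7603 to 9040 CPM) lay with the SC-like cells, below every secretory type named above. T or NK-like cells, with 14 to 30 cells, spanned 8335 to 11883 CPM, so their order relative to the others differed by library. The sums listed here leave out pituicyte-like cells. They therefore do not show that a high share was limited to endocrine or matrix-exporting cell types.

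**Figure D1:**
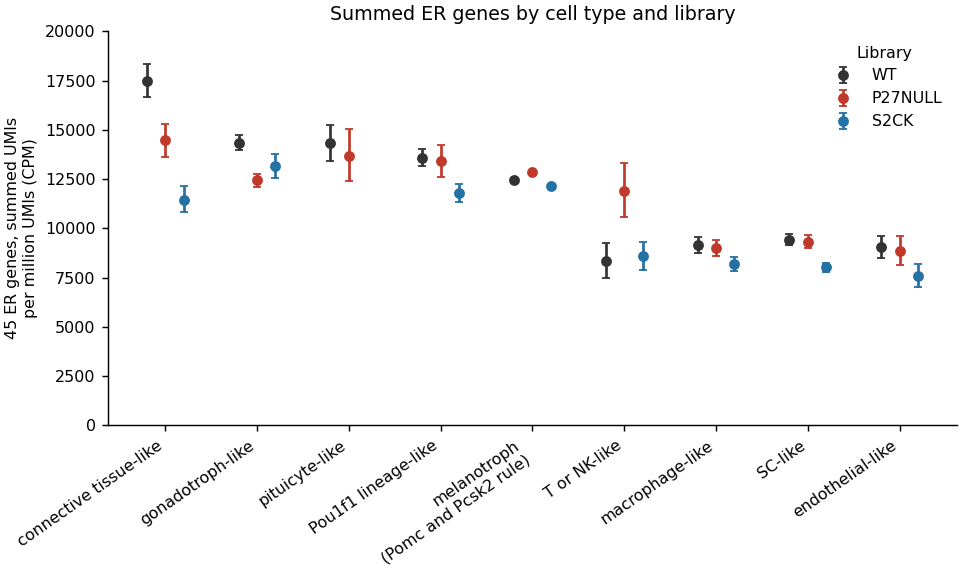
Summed CPM of the 45 ER genes (vertical axis, from 0) by cell type, with a point for each library and its exact 95% Poisson interval, which covers counting error only. Cell types with fewer than 10 cells in a library are left out, and melanotrophs sit between 12137 and 12840 CPM, above SC-like cells at 8017 to 9421 CPM in every library.

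In WT connective tissue-like cells the ER chaperones summed to 3584 CPM, against 2118 (P27NULL) and 1918 (S2CK) CPM in the same cells of the other libraries, with Hspa5 at 964, 338 and 496 CPM on 92, 27 and 52 UMIs. ERAD genes stood at 915 CPM in the 39 pituicyte-like cells of WT and 1134 CPM in the 11 of P27NULL, compared with 317 to 364 CPM in melanotrophs. Most of that came from Selenos, a membrane component of the ERAD machinery, at 651 and 712.5 CPM on 42 and 22 UMIs. Sdf2l1, an ER stress-induced partner of the J-domain chaperones, was at 165.6, 165.7 and 141.8 CPM in gonadotroph-like cells and 215, 233 and 165.5 CPM in macrophage-like cells, against 18.5, 37.5 and 25.1 CPM in SC-like cells. Macrophage-like cells therefore held a low sum of the 45 genes but an Sdf2l1 level above that of SC-like cells in every library. Ssr4, a subunit of the translocon-associated protein complex (TRAP), was at 786 to 1077 CPM in Pou1f1 lineage-like cells and 454 to 589 CPM in melanotrophs.

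Melanotrophs were then compared with SC-like cells, with the 2 cell types of each library as a pair. Of the 45 genes 26 were higher and 3 lower in melanotrophs at an edgeR adjusted p under 0.05, where 20.1% of the 11892 genes tested were higher and 20.2% lower. The median log2 fold change was 0.62 over the 45 genes and 0.08 over all genes tested. The count was 7 of 9 for ER chaperones, 5 of 6 for SRP targeting, 4 of 5 for the oligosaccharyltransferase, 3 of 4 for disulfide isomerases and 4 of 9 for the translocon and TRAP. Signal peptidase had 2 higher and 1 lower of 5, ERAD 1 higher and 1 lower of 3, and none of the 4 UPR transcription factors was called. The p-values rest on how far the difference between the 2 cell types varied over these 3 libraries, which are of 3 genotypes. The edgeR fold changes carry scaling factors from the trimmed mean of M-values, which the CPM do not. Fold changes and CPM can therefore differ in size and in sign, and the calls rest on the scaled values.

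Sdf2l1 was the gene most raised in melanotrophs, at 106 (WT), 104 (P27NULL) and 117 (S2CK) CPM against 18.5, 37.5 and 25.1 CPM in SC-like cells. The groups did not overlap, and the log2 fold change was 2.33 ± 0.23 (SE, edgeR adjusted p = 3.74e-07). Hyou1, a nucleotide exchange factor for BiP, followed at 45.1, 61.0 and 40.5 CPM against 9.25, 23.1 and 14.3 CPM (1.94 ± 0.28, edgeR adjusted p = 3.36e-05). The SC-like values of Hyou1 rest on 4 to 8 UMIs per library. Manf, a secreted and ER-resident protein that binds BiP, was at 325, 309 and 403 CPM against 134, 147 and 143 CPM (1.57 ± 0.14, edgeR adjusted p = 1.56e-07). Dnajb9, a J-domain cochaperone of BiP, rose by a log2 fold change of 1.34 ± 0.23, from 28.6 to 39.3 CPM in SC-like cells to 55.7 to 81.5 CPM.

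Among the translocation genes Sec61g, a small subunit of the channel, was at 2505, 2850 and 1891 CPM in melanotrophs and 1348, 1551 and 979 CPM in SC-like cells (1.18 ± 0.10). Sec61b, the other small subunit, was at 899, 965 and 1098 CPM against 539, 586 and 553 CPM (1.09 ± 0.11), and the groups did not overlap. Ostc, an oligosaccharyltransferase subunit, rose by 1.25 ± 0.14 on the log2 scale, and Ssr4 by 0.96 ± 0.12. The channel pore gene Sec61a1 was not called (0.44 ± 0.22, edgeR adjusted p = 0.135), nor were Sec62 and Sec63 of the post-translational route (0.08 ± 0.11 and -0.04 ± 0.20). Hspa5, at 496, 491 and 597 CPM against 351, 401 and 320.5 CPM, rose by 0.84 ± 0.13 (edgeR adjusted p = 8.04e-05).

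The 3 genes lower in melanotrophs were Sel1l, the adaptor of the main ERAD ubiquitin ligase (-0.70 ± 0.23, edgeR adjusted p = 0.0216), Dnajb11, a J-domain cochaperone (-0.56 ± 0.19, adjusted p = 0.0291 by edgeR) and Sec11a, a catalytic subunit of signal peptidase (-0.46 ± 0.17, adjusted p = 0.0444 by edgeR). Sec11a was at 132, 115 and 151 CPM in melanotrophs and 310, 191 and 175 CPM in SC-like cells. The paralogous subunit Sec11c was at 216, 194 and 199 CPM against 208, 231 and 261 CPM and was not called (0.07 ± 0.14). Its CPM was thus lower in melanotrophs of P27NULL and S2CK, while the scaled fold change lay slightly above 0. All 3 lower calls were lost without the WT library, without the P27NULL library and with DESeq2, and those of Dnajb11 and Sec11a also with no filter on low counts. Xbp1 (0.40 ± 0.17), Herpud1 (-0.36 ± 0.15), Atf4 (-0.03 ± 0.18) and Ddit3, the gene of the stress factor CHOP (-0.47 ± 0.29), did not pass the test.

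**Figure D2:**
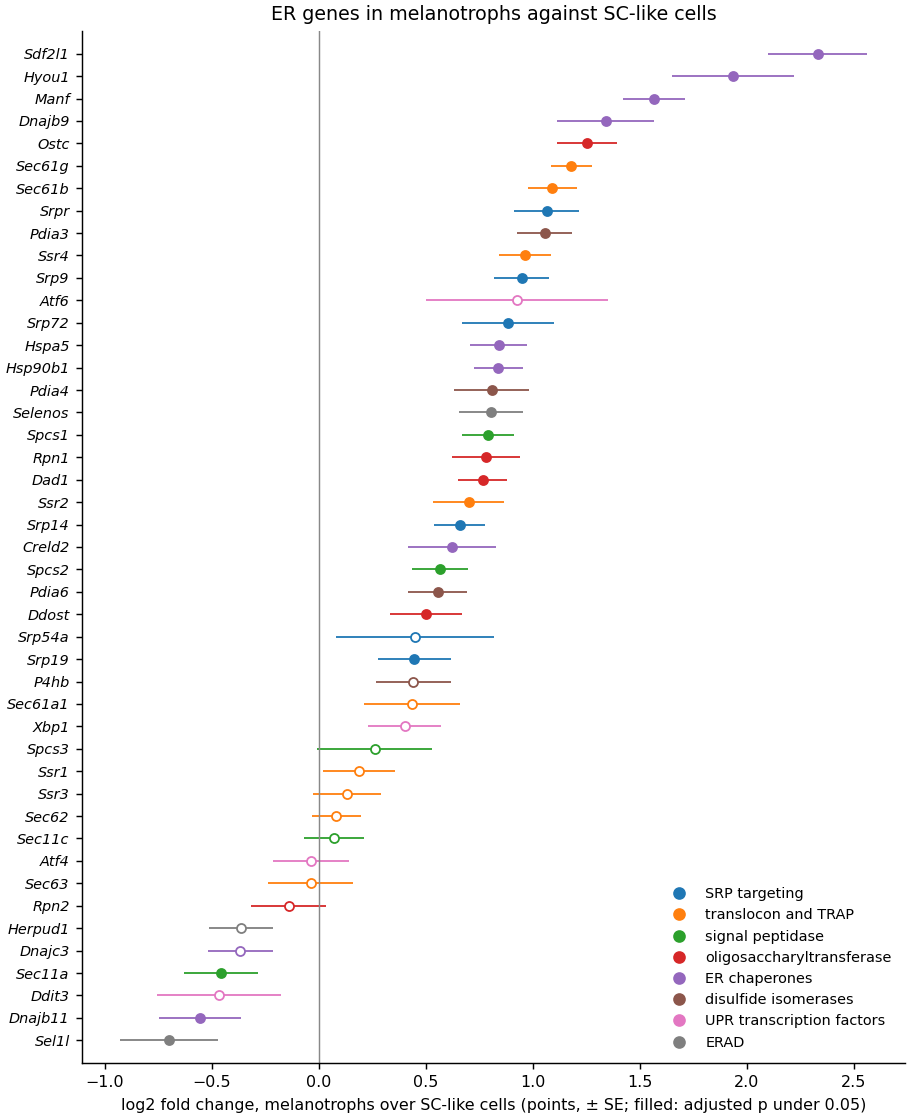
Log2 fold change of each ER gene in melanotrophs over SC-like cells (horizontal axis) from edgeR with the library as a block, with bars of ± 1 SE. Filled points have an adjusted p under 0.05 and colours mark gene groups. Chaperones hold the highest 4 places, led by Sdf2l1 at 2.33, and also a place near the bottom with Dnajb11 at -0.56.

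Other genes of the same route lay nearer to the share over all genes. Of 79 further genes for translocation, glycosylation, folding, ERAD and the UPR, 75 were tested, of which 18 were higher and 10 lower in melanotrophs. Over all genes tested 20.1% were higher and 20.2% lower. Fkbp11, a prolyl isomerase of secretory cells (3.11 ± 0.31), and Pdia5, a disulfide isomerase (2.97 ± 0.79), were the most raised, and Nupr1, a stress-induced transcriptional regulator (-6.03 ± 0.53), and Creb3l1, a membrane-bound transcription factor (-3.13 ± 0.57), the most reduced. Pomc made up 0.41% to 0.73% of the UMIs of SC-like cells, and summed melanotroph markers there were at 113 (WT), 419 (P27NULL) and 374 (S2CK) CPM. Their part in the result was not tested.

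Within melanotrophs, ER transcripts rose with the Pomc share of the cell. Melanotrophs of each library were ordered by the share of their UMIs that came from Pomc and divided into tertiles of 415 (WT), 1160 or 1161 (P27NULL) and 989 or 990 (S2CK) cells, and Pomc was then taken out of the counts and of the totals, so that CPM in the tertiles are shares of the UMIs other than Pomc. The summed 45 genes rose from the lower through the middle to the upper tertile in each library, from 13062 through 14496 to 17346 CPM in WT, from 13654 through 14896 to 16345 in P27NULL and from 12749 through 13918 to 15650 in S2CK. The exact 95% Poisson intervals of the tertiles did not overlap within any library. In quintiles each step was upward in all 3 libraries, from 12776 to 18256 in WT, from 13326 to 16713 in P27NULL and from 12424 to 16202 in S2CK. The highest quintile had a median Pomc share of 26.8% in WT, 20.3% in P27NULL and 20.1% in S2CK.

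**Figure D3:**
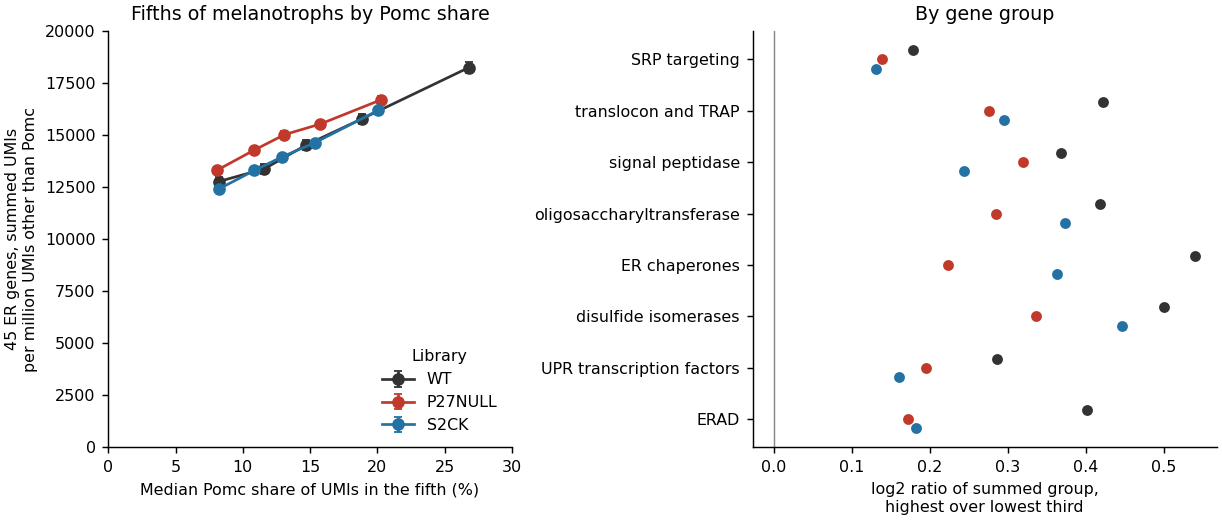
Left, summed CPM of the 45 ER genes with Pomc left out of the total (vertical axis, from 0) against the median Pomc share in quintiles of melanotrophs, with exact 95% Poisson intervals. Right, log2 ratio of the upper to the lower tertile for each gene group and library, from 0.13 for SRP targeting in S2CK to 0.54 for ER chaperones in WT. Every group was above 0 in all 3 libraries.

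Of the 45 genes 28 were higher in the upper than in the lower tertile at an edgeR adjusted p under 0.05 and none was lower, where 4.03% of the 11828 genes tested were higher and 1.86% lower. By an unadjusted p under 0.05 edgeR found 33 higher and 0 lower, where 2205 of the 11828 genes passed in either direction. DESeq2 called 24 higher and 0 lower, against 203 higher and 23 lower of the 11828 genes. The median log2 fold change was 0.33 over the 45 genes and -0.01 over all genes tested. Here too the fold changes carry scaling factors that the CPM do not. The upper tertile was above the lower in all 3 libraries for 33 of the 45 genes, compared with 12.9% of all genes tested. All 9 ER chaperones were called, along with 4 of 5 signal peptidase genes, 4 of 5 oligosaccharyltransferase genes, 3 of 4 disulfide isomerases, 3 of 9 translocon and TRAP genes, 2 of 6 SRP targeting genes, 2 of 3 ERAD genes and 1 of 4 UPR transcription factors.

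Manf had the largest change. It was at 270 (WT), 314 (P27NULL) and 374 (S2CK) CPM in the lower tertile and at 535, 426 and 562 CPM in the upper, so the tertiles did not overlap (0.71 ± 0.08, edgeR adjusted p = 3.48e-06). Ssr4 rose from 432, 438 and 563 to 735, 645 and 827 CPM (0.69 ± 0.06, edgeR adjusted p = 1.55e-07). Sdf2l1 rose from 96.2, 103 and 108 to 159.9, 138 and 161.5 (0.63 ± 0.08, edgeR adjusted p = 1.33e-05). These genes serve different steps, a BiP-binding protein, a translocon subunit and a partner of J-domain chaperones.

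Sec11c rose from 214, 194 and 197 to 327, 275 and 271 CPM (0.59 ± 0.06, edgeR adjusted p = 2.62e-06), and its paralog Sec11a by 0.38 ± 0.07. Pdia3, the isomerase that works with the lectin chaperones on glycoproteins, rose from 459, 474 and 408 to 658, 652 and 577 (0.57 ± 0.05, edgeR adjusted p = 8.16e-07). Creld2, a UPR-induced ER protein, rose from 52.4, 61.6 and 60.1 to 97.4, 86.6 and 69.2 (0.53 ± 0.10, edgeR adjusted p = 0.0023). The step in Creld2 was widest in WT and narrowest in S2CK. Sec61b rose by 0.49 ± 0.06, with all upper tertiles (1249 to 1446) above all lower ones (868 to 1140).

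Among the other chaperones Hspa5 rose from 486, 549 and 611 to 752, 599 and 757 CPM (0.41 ± 0.07, edgeR adjusted p = 9.08e-04), with a small step in P27NULL, whose upper tertile lay below the lower tertile of S2CK. Hsp90b1, the ER member of the Hsp90 family, rose from 825, 827 and 631 to 945, 914 and 746 (0.27 ± 0.05). All 7 genes whose promoter windows held an ERSE or ERSE-II were among the 28 called, of which 24 had a window, and none of the 12 genes with a window that were not called held either motif. Motif and gene group cannot be told apart here, since Hspa5, Hsp90b1, Dnajc3, Creld2 and Dnajb11 are ER chaperones, all of which were called. The chaperones Dnajb9 and Sdf2l1, whose windows held neither motif, were called too. Outside the 45 genes, 18 genes tested held one of these motifs and 2 of them, Calr and Krtcap2, were called higher, where 4.03% of all genes tested were.

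The regulators of the UPR did not move as a set. Xbp1, whose spliced product drives chaperone and translocation genes, rose from 118, 148 and 97.5 to 178, 188 and 121 CPM (0.46 ± 0.07, edgeR adjusted p = 3.27e-04). These 3′ counts do not tell its spliced from its unspliced form. Atf4 was at 75.3, 73.6 and 77.4 in the lower and 80.2, 77.4 and 79.5 in the upper tertile and was not called (0.13 ± 0.08, edgeR adjusted p = 0.403). Ddit3 was at 22.9, 16.9 and 24.3 in the lower and 21.0, 16.3 and 24.7 in the upper tertile (0.05 ± 0.14, edgeR adjusted p = 0.898), and Atf6, a membrane-bound sensor and factor of the UPR, was lower in the upper tertile of all 3 libraries, 24.2, 22.6 and 15.7 against 13.5, 16.9 and 15.2 CPM, without passing the test (-0.27 ± 0.17, edgeR adjusted p = 0.402). Herpud1, a UPR target that acts in ERAD, rose by 0.31 ± 0.08 (edgeR adjusted p = 0.0154), and that call was lost with DESeq2. Sel1l did not pass (-0.04 ± 0.12).

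Among translocon genes the channel pore Sec61a1 (0.06 ± 0.11), Sec62 (0.07 ± 0.06), Sec63 (0.12 ± 0.09) and the TRAP subunits Ssr1, Ssr2 and Ssr3 (0.19, 0.17 and 0.11) were not called, whereas Sec61b, Sec61g and Ssr4 were. In SRP, Srp9 (0.25 ± 0.05) and the receptor gene Srpr (0.46 ± 0.06) were called, and Srp14, which pairs with Srp9, was not (0.16 ± 0.05, edgeR adjusted p = 0.0816). Srp54a has near-identical copies in the mouse genome, so its counts are uncertain.

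**Figure D4:**
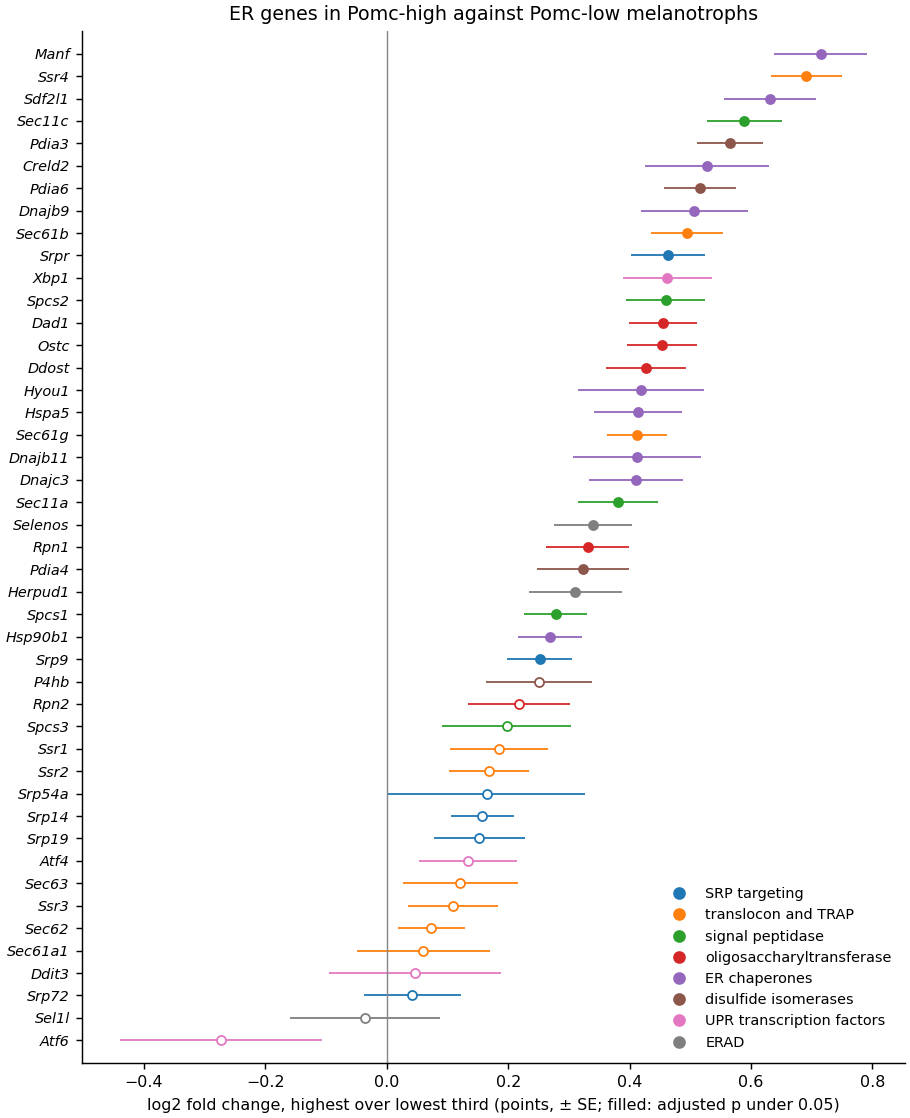
Log2 fold change of each ER gene in the upper over the lower Pomc tertile of melanotrophs (horizontal axis) from edgeR with the library as a block, with bars of ± 1 SE. Filled points have an adjusted p under 0.05. The 28 called genes run from 0.25 (Srp9) to 0.71 (Manf), and 2 genes, Sel1l and Atf6, lie below 0.

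Of the 79 further pathway genes 76 were tested, of which 13 were higher and 1 lower in the upper tertile, against 4.03% and 1.86% of all genes tested. Fkbp11 (0.98 ± 0.09) and Calr, the gene of the lectin chaperone calreticulin (0.53 ± 0.07), had the largest increases, and Nupr1 was the gene that fell (-1.63 ± 0.39).

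The tertiles also differed in what else they held. Summed SC markers fell from 222 to 77.0 CPM in WT, from 145 to 73.1 in P27NULL and from 133 to 64.6 in S2CK, and gonadotroph markers from 72.0 to 3.77, from 28.9 to 2.87 and from 16.5 to 1.40. Macrophage markers went from 92.9 to 23.1, from 53.1 to 49.0 and from 65.3 to 17.5, whereas T or NK markers went from 39.9 to 88.3, from 17.6 to 50.7 and from 23.6 to 62.8. Melanotroph markers, which the rule used in part through Pcsk2, went from 4745 to 8502, from 7215 to 9836 and from 3494 to 4750. With only the melanotrophs in clusters named melanotroph within their own library, 1218, 3397 and 2550 cells, 28 genes were called. When, of these, cells with a UMI of the markers tested for other cell types were also left out, which kept 749, 2618 and 1624 cells, 20 genes were called higher and 0 lower. Over all genes tested these runs called 486 of 11705 and 220 of 10744 higher. The median number of UMIs other than Pomc rose from 2995 to 4132 in WT and from 4021.5 to 4795 in S2CK but went from 2619 to 2279 in P27NULL, and with tertiles drawn within 5 bins of depth 29 genes were called. Female cells went from 12.1% to 28.4% of the tertile in P27NULL, and 28 genes were called with its male cells alone. Comparing the upper with the middle tertile gave 19 genes higher and 0 lower. Without the pairing of tertiles by library no gene was called among the 45 or among all genes, and 20 of the 45 were higher at an unadjusted p under 0.05. Without the S2CK library 17 were called. Over all genes tested 554 of 11805 were higher with depth bins and 489 of 11319 with P27NULL male cells alone. The share was 177 of 11594 against the middle tertile and 143 of 11327 without S2CK. Without the pairing 639 of 11828 genes passed the unadjusted p in either direction.

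Over single cells the share of the 45 genes in the UMIs other than Pomc had a Spearman correlation with the Pomc share of 0.46 in WT (1245 cells), 0.33 in P27NULL (3481 cells) and 0.36 in S2CK (2968 cells). These are descriptions of cells that share a library. The Pomc share was itself correlated with depth, at 0.41, -0.06 and 0.29, and the median cell held 52, 38 and 61 UMIs of the 45 genes.

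Between genotypes the sum of the 45 genes in melanotrophs barely differed. Its log2 ratio between libraries was 0.04 (P27NULL against WT), -0.08 (S2CK against P27NULL) and -0.04 (S2CK against WT). These differences are smaller than the effect of scaling, since with factors from the trimmed mean of M-values (TMM) they became -0.02, 0.06 and 0.03. With 1 library per genotype no difference was tested, and intervals cover counting error only. Mitochondrial transcripts made up 5.47%, 5.12% and 7.52% of melanotroph UMIs in WT, P27NULL and S2CK. With Pomc, mitochondrial and ribosomal protein genes taken out of the total together, the 3 ratios were -0.047, 0.042 and -0.0047. The part of mitochondrial transcripts alone was not tested. For P27NULL against WT 0 of the 45 genes were higher or lower by 0.5 on the log2 scale, where 9.0% of the 10011 genes compared were higher and 2.56% lower by that much. The largest increases were Rpn1 (0.45) and Rpn2 (0.44), both oligosaccharyltransferase subunits, Hyou1 (0.44) and Srp72 (0.38), and the largest decreases Ddit3 (-0.39), Dad1 (-0.30), Dnajb9 (-0.27) and Ostc (-0.22). Xbp1 was at 0.24, Sec61b at 0.10, Hspa5 at -0.02, Ssr4 at -0.08 and Sec11c at -0.15.

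For S2CK against P27NULL 2 genes were higher and 8 lower by 0.5, against 4.82% and 17.6% of 10952 genes, and with TMM 8 were higher and 3 lower, against 9.19% and 10.3%. TMM moved the median of all genes from -0.16 to -0.02, so this split depends on the scaling while the order of the genes does not. Pdia4, a disulfide isomerase, was at 155 (WT), 171 (P27NULL) and 73.3 (S2CK) CPM, and its log2 ratio of S2CK to P27NULL was -1.22 (exact 95% interval -1.32 to -1.12, with TMM -1.08). Against the female melanotrophs of P27NULL alone it was -1.19, where 2872 of the 2968 S2CK melanotrophs were female. In SC-like cells Pdia4 was at 125, 86.6 and 57.3 CPM, with a ratio of -0.60 (interval -1.36 to 0.17) that was -0.11 (interval -1.78 to 2.24) when only P27NULL female cells were used, which held 3 Pdia4 UMIs. Against WT the S2CK ratio of Pdia4 in SC-like cells was -1.12 (interval -1.80 to -0.47). Rpn1 was at 169.6, 231 and 127.5 CPM (-0.86, with TMM -0.72). Sec61g fell by 0.59 in melanotrophs and by 0.66 in SC-like cells on the log2 scale, and Srp54a was at -0.70.

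Dnajb9 (67.3, 55.7 and 81.5 CPM, log2 ratio 0.55), Ddit3 (18.6, 14.2 and 20.6 CPM, 0.53), Ssr2 (0.46) and Dad1 (0.40) had the largest increases in S2CK over P27NULL. When only female P27NULL melanotrophs were used, Ddit3 was at 0.17 with an interval across 0 (-0.25 to 0.61). Dnajb9, Ssr2 and Dad1 were then at 0.53, 0.72 and 0.35. Hspa5 was at 496, 491 and 597 CPM (0.28) and Manf at 325, 309 and 403 CPM (0.38), while Hsp90b1 was at 713, 742 and 587.5 CPM (-0.34) and Xbp1 at 120, 142 and 94.1 CPM (-0.59). Against female P27NULL melanotrophs alone Hspa5 was at 0.37 and Manf at 0.50. Hsp90b1 was then nearer to 0, at -0.12 (interval -0.20 to -0.05), and Xbp1 at -0.44 (interval -0.60 to -0.27). With all P27NULL melanotrophs, genes of a single complex lay on both sides of 0. Sec61b was at 0.19 and Sec61g at -0.59, Ssr4 at 0.38 and Ssr1 at -0.50, and Spcs2 at 0.31 and Spcs1 at -0.54. Of the 45 log2 ratios 18 had an interval above 0, 20 below 0 and 7 across it, and none of these 38 changed sign with TMM.

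For S2CK against WT 0 genes were higher and 2 lower by 0.5, against 6.70% and 9.55% of 10194 genes. These were Pdia4 (-1.08) and Srp54a (-0.77), followed by Ssr1 (-0.44) and Rpn1 (-0.41). Srp72 (0.41), Ssr2 (0.38), Selenos (0.33) and Manf (0.31) had the largest increases. In this contrast Hspa5 was at 0.27, Sec61b at 0.29, Ssr4 at 0.30, Ddit3 at 0.14, Sec11c at -0.12 and Xbp1 at -0.35. Atf4 was at 64.8 (WT), 66.0 (P27NULL) and 70.4 (S2CK) CPM, and its intervals crossed 0 in all 3 contrasts, but with TMM not in those with S2CK (0.23 against P27NULL and 0.19 against WT). Herpud1 was at 98.1, 114 and 100.3 CPM, with a log2 ratio of 0.21 (interval 0.08 to 0.35) for P27NULL against WT and -0.18 (interval -0.28 to -0.08) for S2CK against P27NULL, the latter -0.04 with an interval across 0 under TMM. With only female P27NULL melanotrophs the S2CK ratio of Herpud1 was 0.02, with an interval across 0 (-0.16 to 0.20). That of Atf4 was then 0.32 (interval 0.09 to 0.57).

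**Figure D5:**
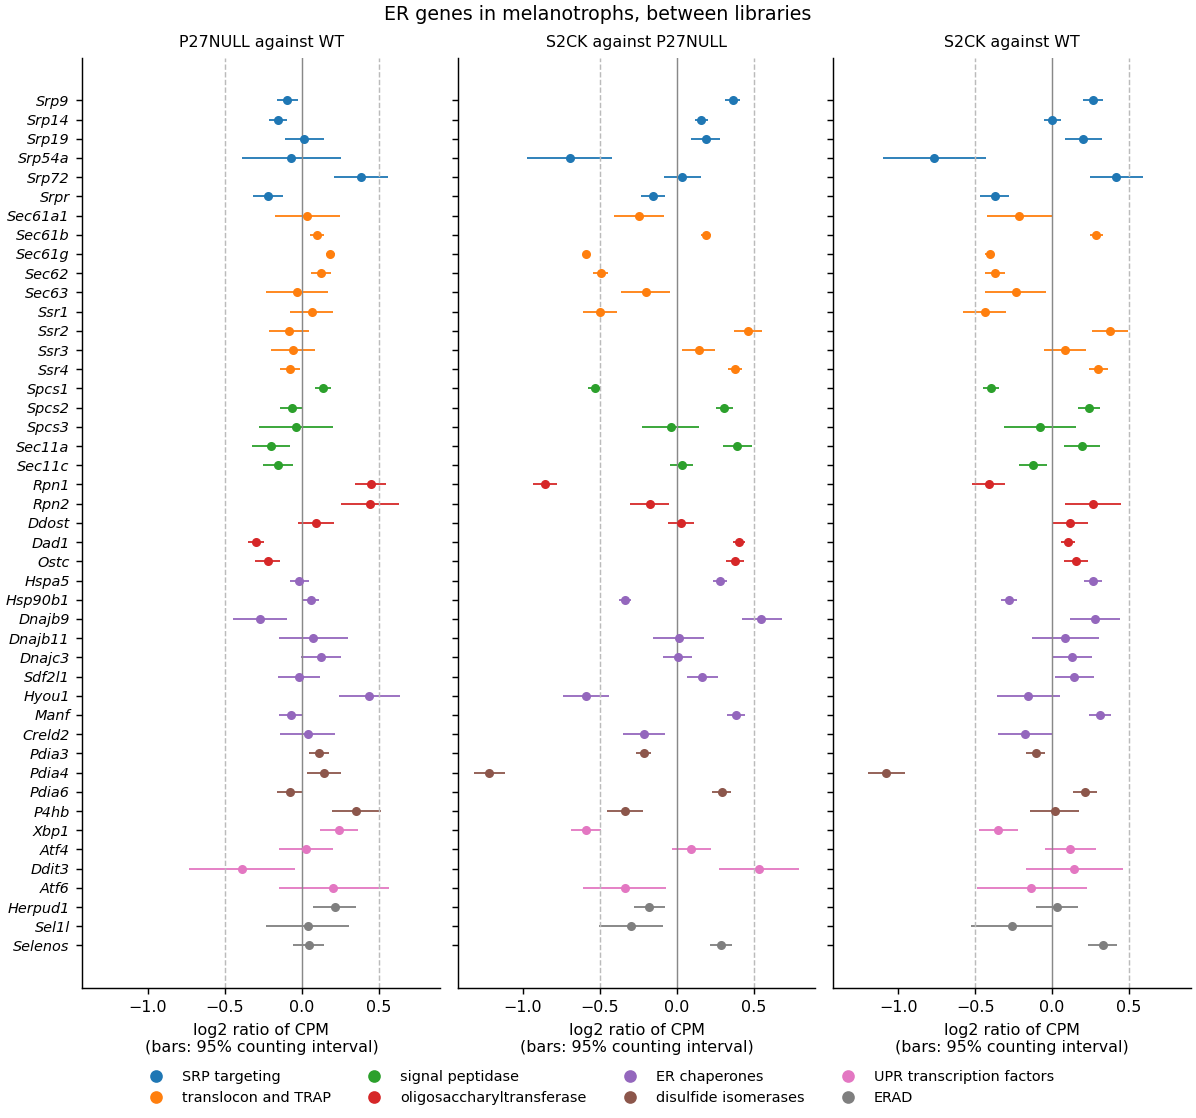
Log2 ratio of CPM in melanotrophs between libraries (horizontal axes) for each ER gene, with exact 95% intervals of counting error. Dashed lines mark a log2 ratio of 0.5 in either direction. No gene passes them for P27NULL against WT, and Pdia4 lies furthest out in both contrasts with S2CK, at -1.22 and -1.08.

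In SC-like cells the sum of the 45 genes was level between WT and P27NULL (log2 ratio -0.02, exact 95% interval -0.08 to 0.05) and lower in S2CK, at -0.22 against P27NULL and -0.23 against WT. Against the female cells of P27NULL alone the former was -0.14, with an interval across 0 (-0.29 to 0.0034). Without Pomc, mitochondrial and ribosomal protein genes in the total these became -0.10 and -0.10. By 0.5 on the log2 scale 1 gene was higher and 5 lower of 41 for P27NULL against WT (14.9% and 16.6% of all genes), 2 higher and 5 lower of 42 (18.3% and 23.4%) in S2CK relative to P27NULL, and 1 higher and 7 lower of 42 (17.0% and 24.2%) in S2CK relative to WT. Immediate early genes, which respond to cell handling among other things, summed to 5058, 9952 and 5158 CPM in these cells, and their part in the ratios was not tested. Most single genes were not resolved at this depth, since the interval crossed 0 for 38, 36 and 32 of them.

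Among those that were, Sec11a was at 310 (WT), 191 (P27NULL) and 175 (S2CK) CPM (log2 ratio of P27NULL to WT -0.70, exact 95% interval -1.15 to -0.26). Spcs1, an accessory subunit of signal peptidase, was at 485.5, 586 and 308 CPM (S2CK to P27NULL -0.93, interval -1.23 to -0.63), and Ssr4 at 287, 271.5 and 388.5 CPM (0.52, interval 0.16 to 0.88). The same contrast in melanotrophs gave -0.54 for Spcs1 and 0.38 for Ssr4. When only female SC-like cells of P27NULL were used, Spcs1 was at -0.80 (interval -1.40 to -0.14). Ssr4 was then at 0.33 with an interval across 0 (-0.42 to 1.19), on 15 P27NULL UMIs. The largest ratios rested on few UMIs, as for Spcs3, with 15, 6 and 25 UMIs (1.37, interval 0.05 to 2.94), and Sdf2l1, with 8, 13 and 14 UMIs (P27NULL to WT 1.02, interval -0.36 to 2.50).

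Other large ratios of P27NULL to WT in these cells were Ssr1 (0.43), P4hb (0.37), Creld2 (0.32), Spcs3 (-1.0), Ddost (-0.58) and Srp72 (-0.56), each with an interval across 0. For S2CK against P27NULL these were Ddit3 (0.45), Srp72 (0.19) and Creld2 (-0.69), whose intervals crossed 0. For S2CK against WT, Ssr4 was higher (0.44, interval 0.11 to 0.77), and Sec11a (-0.82, interval -1.21 to -0.43) and Srpr (-0.74, interval -1.33 to -0.17) were lower, while Ddit3 (0.92), Sdf2l1 (0.44), Spcs3 (0.37) and Sel1l (-0.66) had intervals across 0. Sec61b was at 0.12, -0.08 and 0.04 in the 3 contrasts, Sec11c at 0.15, 0.18 and 0.33, and Herpud1 at -0.13, -0.06 and -0.19, all with intervals across 0. Hspa5 was at 0.19, -0.33 and -0.13 in the 3 contrasts, Xbp1 at -0.00, 0.07 and 0.07, and Atf4 at -0.14, -0.16 and -0.30, each with an interval that crossed 0.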

How the data were processed

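The authors made 10x 3′ libraries and counted UMIs per gene and cell (Cell Ranger 3.0.2, STAR 2.5.1b, mm10 in the submitters' processing notes). Their deposited tables hold raw counts with no normalization, and the study's methods removed cells with fewer than 50 genes or over 10% mitochondrial transcripts, and no deposited cell lay outside these limits when checked. Every deposited column was used.

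The 45 genes, the groups and the further pathway genes were chosen with earlier results of these data known. Clusters (scanpy 1.11.5, 2000 variable genes, 20 components, 20 neighbours, Leiden resolution 1) were built without the ER genes, Pomc and Cdkn1b and named from marker lists with thresholds set after seeing the data. Doublets were kept, since Scrublet marked 9, 1 and 1 cells and had not worked. SC-like cells came from clusters of each library and the other types from joint clusters. The Pomc rule took in 22, 84 and 71 cells of per-library clusters named for other types, and 5, 0 and 347 of unnamed ones.

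UMIs of each cell type were added up within a library. Log2 ratios between genotypes have exact conditional 95% intervals, for genes with 100 UMIs (melanotrophs) or 20 UMIs (SC-like) in both libraries together. Paired sums were tested with edgeR 4.0.16 (quasi-likelihood, TMM, filterByExpr, library as a block, R 4.3.3) and Benjamini-Hochberg adjustment over all genes, with DESeq2 1.42.0 as an alternative. The block is the pool of animals from which both sums of a pair come. Named were, per contrast, the 4 largest increases and decreases, per edgeR comparison the 6 largest calls in each direction, of other pathway genes the largest 2, and 8 genes throughout (Hspa5, Xbp1, Atf4, Ddit3, Herpud1, Sec61b, Ssr4, Sec11c). Further members were named after their values were seen. Scripts were tested on simulated data. Protein retrieval signals were not analysed here.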

Additional observations from a re-analysis of the deposited data

Results flagged for a closer look

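Gene groups that moved in opposite directions in melanotrophs and SC-like cells under the same contrast are listed here, where both exact 95% intervals excluded 0. The difference between the cell types was not tested, since there was 1 library per genotype. For S2CK against P27NULL the summed ER chaperones had a log2 ratio of 0.039 (interval 0.02 to 0.06) in melanotrophs and -0.32 (-0.49 to -0.15) in SC-like cells, and with TMM 0.18 and -0.25. For S2CK against WT they stood at 0.058 (0.03 to 0.09) and -0.24 (-0.40 to -0.08), and with TMM at 0.13 and -0.20. The SRP targeting genes in S2CK against WT were at 0.064 (0.03 to 0.10) and -0.18 (-0.37 to -0.00), and with TMM at 0.14 and -0.14, where the interval in SC-like cells crossed 0. Disulfide isomerases in P27NULL against WT were at 0.084 (0.04 to 0.13) and -0.25 (-0.50 to -0.00), and with TMM at 0.02 and -0.28, where the interval in melanotrophs crossed 0.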

How the results depend on the processing

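Between genotypes in melanotrophs the sign of the summed 45 genes depended on the scaling. With TMM factors the log2 ratios were -0.022 (P27NULL against WT), 0.056 (S2CK against P27NULL) and 0.034 (S2CK against WT), and with a total without Pomc, mitochondrial and ribosomal genes -0.047, 0.042 and -0.0047. S2CK against P27NULL was -0.056 against female P27NULL cells and -0.070 in melanotroph-like clusters. In SC-like cells S2CK against P27NULL was -0.15 with TMM, -0.10 with the reduced total and -0.14 against female P27NULL cells (interval across 0), and S2CK against WT was -0.10 with the reduced total.

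Against SC-like cells 22 to 29 genes were higher under every alternative run. The count of lower genes was 0 with DESeq2, 1 with no filter, 5 with cells of 1000 UMIs and 500 genes, 5 without top doublet scores, and 0 to 5 with a library left out. In the tertiles 17 to 29 genes were higher with a library left out (17 without S2CK), 24 with DESeq2, and 0 without the replicate block, which pairs the tertiles of 1 pool of animals. Over all genes tested 143 to 524, 203 and 0 were higher in these runs. Upper against middle tertile and melanotroph-cluster cells without other markers were chosen after seeing the data. Depth limits SC-like cells more than melanotrophs, with 346256 to 558588 UMIs per library against 6169078 to 16921650 in melanotrophs.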

Other observations

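Immediate early genes did not follow the ER genes across the Pomc tertiles in every library. Their sum went from 5112 to 3729 CPM (Pomc left out of the total) between the lower and the upper tertile of WT, but from 2340 to 3292 in P27NULL and from 1788 to 2140 in S2CK. Cytosolic heat shock genes went from 2072 to 2465, from 2199 to 2332 and from 1711 to 1911. The summed ER genes rose in all 3 libraries, by 0.41, 0.26 and 0.30 on the log2 scale.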
